A study of Mus musculus with 6 samples.

Results

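The 10 genes described here are the mouse forms of genes at human Alzheimer's disease risk loci that act outside the cleavage of the amyloid precursor, together with the lipoprotein receptor gene Lrp1. They were Apoe, Lrp1, Sorl1, Abca7, Bin1, Picalm, Cd2ap, Ptk2b, Inpp5d and Plcg2, chosen by name and matched by Ensembl gene identifier, and all 10 were found among the 56923 genes of the deposited table. Bulk poly-A RNA sequencing had been run on punches of the locus coeruleus, the noradrenergic nucleus of the pons, from 5xFAD mice (3 libraries, numbered 64, 65 and 79) and wild-type (WT) mice (3 libraries, 62, 63 and 66). The 5xFAD line expresses human transgenes with familial Alzheimer's disease mutations, APP among them, from Thy1 regulatory sequence, which is active in neurons. The sources used here give no age, sex, strain background or housing, and do not say whether each number is a separate animal, so p-values measure only the spread between these libraries. The study's title names tau hyperphosphorylation, sleep and the excitability of locus coeruleus neurons, and the comparison made here asks whether transcripts of these genes differ between the genotypes in the punched tissue.

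Apolipoprotein E is a lipid carrier that astrocytes, and microglia in disease, secrete in the brain, and cells take it up through endocytic receptors such as LRP1. SORL1 sorts cargo, the amyloid precursor among it, between endosomes and the Golgi with the retromer coat, while BIN1, PICALM and CD2AP take part in bending, coating and anchoring membranes during endocytosis. INPP5D (SHIP1) and PLCG2 act on phosphoinositides downstream of immune receptors in microglia, and PTK2B (PYK2) is a calcium-responsive tyrosine kinase related to focal adhesion kinase.

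The promoters of 4 of these genes are shown, with Apoe as the most abundant transcript, Sorl1 and Picalm as windows with GC boxes and Inpp5d as the 1 window with a match to the myeloid factor PU.1. RefSeq (GRCm38.p6) windows matched 8 of the 10 genes, all but Bin1 and Ptk2b, and the 250 bases before the start of transcription are given 5′ to 3′ on the gene's strand. Where a gene had several windows, the one nearest the GENCODE gene start was taken. The windows are chr7:19699189-19699438 (minus strand) for Apoe, chr9:42124298-42124547 (minus) for Sorl1, chr7:90129963-90130212 (plus) for Picalm and chr1:87620062-87620311 (plus) for Inpp5d. Capitals mark motifs found on either strand: the GC box GGGCGG, which reads CCGCCC on the other strand, in Sorl1 and Picalm, and GAGGAAGT, a core sequence of the myeloid factor PU.1, in Inpp5d.
Apoe: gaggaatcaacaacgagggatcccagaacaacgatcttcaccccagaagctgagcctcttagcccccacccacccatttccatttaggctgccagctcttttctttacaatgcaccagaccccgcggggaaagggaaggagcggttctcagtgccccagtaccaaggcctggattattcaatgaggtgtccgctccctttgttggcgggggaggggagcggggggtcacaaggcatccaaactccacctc
Sorl1: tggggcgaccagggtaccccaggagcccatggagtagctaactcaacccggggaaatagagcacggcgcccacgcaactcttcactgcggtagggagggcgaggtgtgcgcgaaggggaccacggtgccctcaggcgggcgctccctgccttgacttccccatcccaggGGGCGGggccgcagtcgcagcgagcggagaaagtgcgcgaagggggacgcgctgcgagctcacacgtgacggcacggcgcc
Picalm: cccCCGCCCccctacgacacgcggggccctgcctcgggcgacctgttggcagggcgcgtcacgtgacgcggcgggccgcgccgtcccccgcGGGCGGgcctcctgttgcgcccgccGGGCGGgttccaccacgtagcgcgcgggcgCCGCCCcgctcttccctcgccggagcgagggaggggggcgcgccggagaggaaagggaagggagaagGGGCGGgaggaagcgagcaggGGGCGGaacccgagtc
Inpp5d: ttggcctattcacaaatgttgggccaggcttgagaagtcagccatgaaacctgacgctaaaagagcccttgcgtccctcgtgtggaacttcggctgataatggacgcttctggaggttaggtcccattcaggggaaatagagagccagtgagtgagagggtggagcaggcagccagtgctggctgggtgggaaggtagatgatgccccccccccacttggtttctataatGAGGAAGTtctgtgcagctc

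The GC box was present in 5 of the 8 windows, against 32.7% of 32851 RefSeq windows of the same length, and Picalm held 6 copies. The PU.1 core stood 20 bases before the start of Inpp5d and in none of the other 7 windows, against 2.44% of all windows. None of the 8 held TATAAA (12.4% of all windows) or the cyclic AMP response element TGACGTCA (1.55%), and CCAAT was found in Abca7 alone (33.8% of all windows). G and C made up 79.2% of the Picalm window, 69.6% of that of Sorl1, 57.2% of that of Apoe and 54.4% of that of Inpp5d, beside a median of 52.4% over all windows. In the windows not printed the share was 76.4% for Cd2ap, 67.2% for Lrp1, 59.6% for Plcg2 and 58.8% for Abca7, so it did not follow the order of the transcript levels given below. A match to these letters describes the window and is not evidence of binding. No motif overlapped another in the sequences printed.

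The deposited values, called normalized counts here, are the reads of a gene over the size factor of its library, from 15158712 to 17774759 reads assigned to genes in 5xFAD and 17362733 to 20079349 in WT. Thy1, whose sequence is part of the transgene cassette, was 1.23 higher on the log2 scale in 5xFAD (SE 0.11, limma adjusted p = 0.0456). It alone of 16411 tested genes passed, and the call ended when any library but 5xFAD 65 was left out (adjusted p 0.145 to 0.404). The noradrenergic markers marked the tissue in all libraries, with a summed normalized count of 12636 to 17394 in 5xFAD and 9175 to 16051 in WT over 12 genes, of which Hand2 was at 0 in all libraries. Markers of neurons of the cerebellum, which lies next to this nucleus, summed to 14817, 25228 and 9015 in 5xFAD 64, 65 and 79 and to 4922, 19886 and 6969 in WT 62, 63 and 66, so 1 library of each group (5xFAD 65 and WT 63) stood above the rest of its group. All 12 cerebellar markers had higher means in 5xFAD and 0 of the 12 passed the test. The summed markers of choroid plexus and blood were highest in WT 66, at 4444. Ttr, which is among them, read 1107 in WT 66 and 10.2 to 61.2 in the other libraries.

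Levels between genes were compared as normalized counts per kilobase of exon, with all annotated exons of a gene merged. The 10 genes spanned an 880-fold range on this scale, and the same order held in 5xFAD and in WT. Apoe was the most abundant at 8207 ± 470 per kilobase in 5xFAD and 8167 ± 174 in WT (SD, n = 3 each), above 99.8% of the 16177 tested genes with a length. Bin1 followed at 1015 ± 94.1 in 5xFAD and 982 ± 19.8 in WT, then Sorl1 at 830.0 ± 36.5 and 835 ± 40.9, and Lrp1 at 504 ± 22.4 and 508 ± 6.65, each in 5xFAD and in WT. Picalm stood at 257 ± 22.1 per kilobase in 5xFAD and 262 ± 17.9 in WT.

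The remaining genes lay around or below the middle of the tested genes, whose median was 72.5 per kilobase. Abca7 was at 83.0 ± 7.31 per kilobase in 5xFAD and 80.4 ± 3.52 in WT, and Cd2ap at 58.9 ± 1.11 in 5xFAD and 58.2 ± 2.22 in WT. The genes of phosphoinositide and kinase signalling were the lowest, with Plcg2 at 19.5 ± 2.71 in 5xFAD and 20.1 ± 2.26 in WT, Inpp5d at 14.9 ± 1.97 and 12.7 ± 0.70, and Ptk2b at 10.1 ± 0.76 and 8.55 ± 1.19, per kilobase in 5xFAD and in WT. Neighbours in the order did not overlap over the 6 libraries. The places of 4 genes nevertheless depend on the gene length used: per kilobase of the longest transcript, Cd2ap (166) stood above Abca7 (82.4) and Inpp5d (21.3) above Plcg2 (19.8), and neither order is settled.

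**Figure D1:**
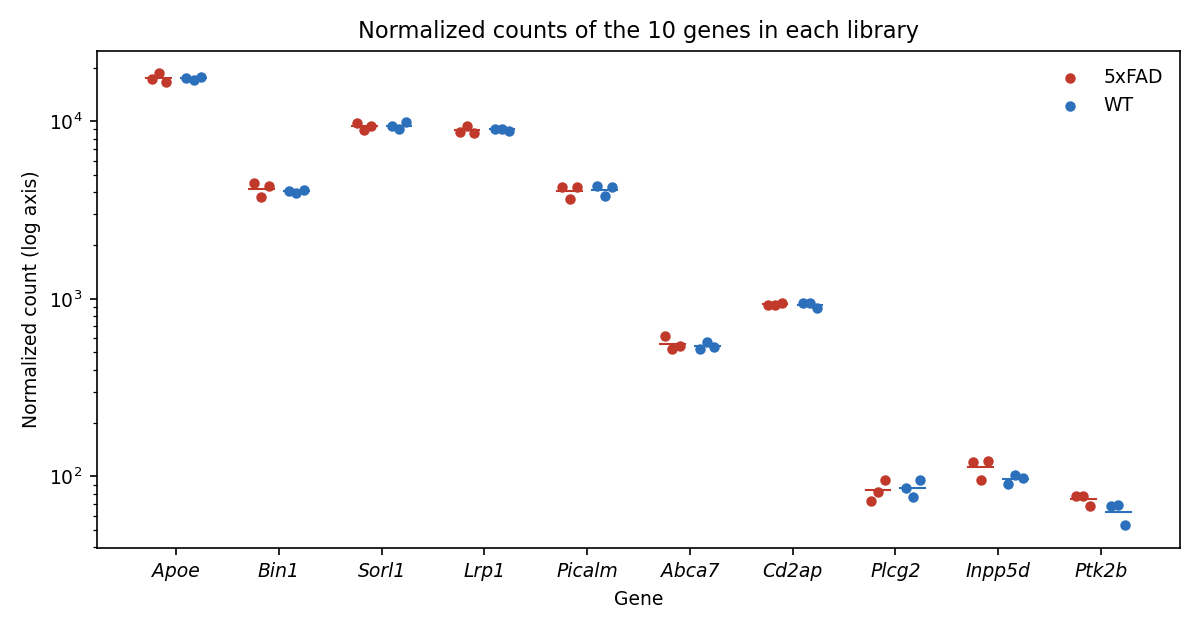
Normalized count (log axis, not corrected for gene length) of each gene in the 3 5xFAD libraries (red) and the 3 WT libraries (blue), with bars at the group means, ordered by level per kilobase. Apoe lies between 16669 and 18644, Ptk2b between 53.1 and 78.0, and the groups overlap for every gene.

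No gene of the 10 passed the test between the genotypes. With Benjamini-Hochberg adjustment across the 16411 tested genes, limma called 0 of the 10, against 0.00609% of all tested genes, and none had an unadjusted p under 0.05, against 2.32% of all. The edgeR and DESeq2 tests on recovered reads likewise called 0 of the 10, with 0 at an unadjusted p under 0.05. The 3 5xFAD libraries did not lie all above or all below the 3 WT libraries for any of the 10, where 7.42% of tested genes showed such a separation, 3.72% with 5xFAD higher and 3.7% with 5xFAD lower. Fold changes are 5xFAD over WT and were taken from log2(normalized count + 1). Their median was 0.011 for the 10 genes and 0.00053 for all tested genes, and 6 of the 10 were above 0 and 4 below, where 50.2% of all tested genes were above 0. The adjusted p was 0.9995 for all 10 genes and is not repeated below. In bulk tissue, fewer cells of a type and less RNA per cell cannot be told apart.

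Among the lipoprotein genes, Apoe (ENSMUSG00000002985.17) read 17327, 18644 and 16669 normalized counts in 5xFAD and 17551, 17053 and 17781 in WT. The highest and the lowest of the 6 libraries were both 5xFAD, so the WT values lay inside the range of the 5xFAD values. Its log2 fold change was 0.0057 (SE 0.058), and the 95% interval ran from a fold of 0.918 to one of 1.10. Astrocyte markers, 14 genes of which none was at 0, summed to 97833, 96740 and 100363 in 5xFAD and 105235, 94789 and 106585 in WT. The library highest in Apoe, 5xFAD 65, was the second lowest in this sum. Single markers differed, since Slc1a3 was highest in 5xFAD 65 (7474) while Slc1a2 (28632), Aqp4 (6098) and Gja1 (5522) were lowest there. The part of astrocytes in the Apoe values was not tested.

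Lrp1 (ENSMUSG00000040249.16), the endocytic receptor that takes up apolipoprotein E, read 8747, 9385 and 8656 in 5xFAD and 9068, 9068 and 8864 in WT. Here too 5xFAD 65 was the highest library and the other 5xFAD libraries were the lowest. On the log2 scale the fold change was −0.012 (SE 0.053), bounded by −0.13 and 0.11 at 95%.

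Sorl1 (ENSMUSG00000049313.9), the sorting receptor, read 9781, 8959 and 9451 in 5xFAD and 9414, 9010 and 9934 in WT. The lowest library was 5xFAD 65 and the highest WT 66, and the groups overlapped through most of their range. Its fold change was −0.0083 on the log2 scale (SE 0.059), bounded by −0.14 and 0.12. Annotated exons of Sorl1 share 185 of 11321 bases with an antisense gene, Gm16214, that reached at most 1.72 normalized counts.

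Abca7 (ENSMUSG00000035722.16), a transporter that moves lipids across membranes, read 617, 525 and 540 in 5xFAD and 522, 569 and 538 in WT. 5xFAD 64 was above all WT libraries and the other 5xFAD libraries fell within the WT range. This gave a log2 fold change of 0.044, with an SE of 0.082 and bounds of −0.14 and 0.23.

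Of the endocytosis adaptors, Bin1 (ENSMUSG00000024381.17), whose protein bends membranes into tubules, read 4474, 3741 and 4322 in 5xFAD and 4042, 3963 and 4126 in WT. The 5xFAD values lay on both sides of WT, since 64 and 79 were above all WT libraries and 65 was below them all. The log2 fold change was 0.043 (SE 0.070, bounds −0.11 and 0.20), and 0.12 without 5xFAD 65 (95% interval −0.0045 to 0.25, unadjusted p = 0.0573 in the limma test across all genes). Exons of Bin1 share 256 of 4117 bases with the antisense non-coding gene A830052D11Rik, which reached at most 14.3 normalized counts, and no source used here says whether strand was used in counting.

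Picalm (ENSMUSG00000039361.12), a clathrin assembly protein, read 4243, 3643 and 4244 in 5xFAD and 4325, 3806 and 4256 in WT. The library order placed 5xFAD 65 lowest, WT 63 next and the other libraries within a narrow band. The log2 fold change was −0.032 (SE 0.076, bounds −0.20 and 0.14). Cd2ap (ENSMUSG00000061665.8), a scaffold between membrane receptors and actin, read 926, 921 and 954 in 5xFAD and 944, 944 and 883 in WT. Its values spread least of the 10 on the log2 scale, with an SD within groups of 0.044, and 5.76% of tested genes had a smaller one. The 3 5xFAD values fell within the WT range but for 5xFAD 79, and the log2 fold change was 0.016 (SE 0.059, bounds −0.12 and 0.15).

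The order of the libraries for Bin1 and Picalm ran alongside the summed markers of oligodendrocytes and neurons. The oligodendrocyte sum of 14 genes was 305710, 224072 and 348214 in 5xFAD and 281164, 231498 and 293405 in WT, and the neuronal sum of 14 genes was 206516, 186255 and 215615 in 5xFAD and 227153, 198498 and 221240 in WT. Bin1 and the oligodendrocyte sum shared their 4 lower places, from WT 66 down through WT 62 and WT 63 to 5xFAD 65, and Picalm and the neuronal sum shared the whole order. The sum of endothelial and mural markers had the order of Bin1 in all 6 libraries, with 9731, 8937 and 9641 in 5xFAD and 9103, 8983 and 9622 in WT. Of the remaining marker sums made, none had the whole order of Bin1 or of Picalm. 5xFAD 65 and WT 63 were the 2 lowest libraries for Bin1, Picalm and both sums, and the 2 highest for cerebellar and noradrenergic markers. The neuronal markers were divided on these 2 libraries. Snap25, Ndrg4, Nefl and Nefm, which have high counts in the sum, were lowest in them. Syt1, Rbfox3, Stmn2 and Gap43 were highest in them. Syt1 was at 10034 in 5xFAD 65, 9884 in WT 63 and 6393 to 7995 in the others. Map2, also of high count, was neither lowest nor highest in these 2 libraries, at 20033 in 5xFAD 65 and 22220 in WT 63. The neuronal sum is thus no measure of all neurons. None of the 14 oligodendrocyte or 14 neuronal markers was at 0, and the part of tissue composition in the values of Bin1 and Picalm was not tested.

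**Figure D2:**
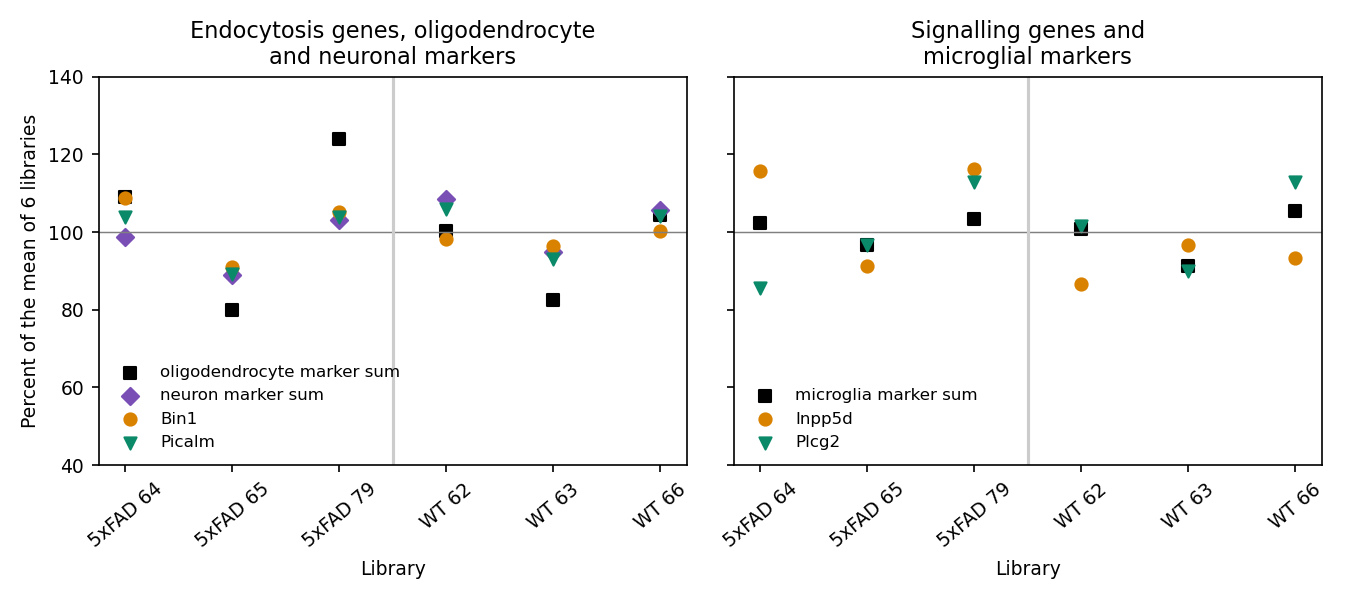
Each library as a percent of the mean of all 6 libraries, 5xFAD left of the grey line and WT right of it, for Bin1 and Picalm with the summed oligodendrocyte and neuronal markers (left panel) and for Inpp5d and Plcg2 with the summed microglial markers (right panel). Bin1 spans 91.0% to 109% and Picalm 89.1% to 106%, both lowest in 5xFAD 65, while Inpp5d spans 86.7% to 116% and the microglial sum 91.2% to 106%.

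The signalling genes had the fewest reads and the widest intervals. Inpp5d (ENSMUSG00000026288.15), the inositol phosphatase SHIP1, read 121, 95.7 and 122 in 5xFAD and 91.0, 102 and 98.0 in WT. 5xFAD 64 and 79 lay above all WT libraries and 5xFAD 65 lay within them. The log2 fold change was 0.21 (SE 0.15), with 95% bounds at folds of 0.918 and 1.46 (unadjusted p = 0.188 in the limma test across all genes), and 0.33 without 5xFAD 65 (95% interval −0.022 to 0.68). The microglial markers, 17 genes of which none was at 0, summed to 6371, 6028 and 6437 in 5xFAD and 6271, 5682 and 6574 in WT. The 2 libraries highest in Inpp5d, 5xFAD 79 and 64, came next after WT 66 in this sum, and the 5xFAD libraries had the same order in both. The WT libraries did not, since WT 63 was the highest of them in Inpp5d and the lowest in the sum. The part of microglia in the Inpp5d values was not tested.

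Plcg2 (ENSMUSG00000034330.11), the phospholipase that acts after the microglial receptor TREM2 and the B-cell receptor, read 72.8, 82.2 and 96.0 in 5xFAD and 86.4, 76.6 and 96.0 in WT. Its highest values in the 2 groups were nearly equal and its lowest library was 5xFAD 64, where Inpp5d was high. The log2 fold change was −0.048 (SE 0.17), bounded by −0.43 and 0.33.

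Ptk2b (ENSMUSG00000059456.14), the calcium-responsive kinase, read 77.4, 78.0 and 68.0 in 5xFAD and 67.8, 68.8 and 53.1 in WT. 5xFAD 64 and 65 were above all WT libraries, 5xFAD 79 was within them, and WT 66 stood lowest. Its log2 fold change was 0.24 (SE 0.18), with 95% bounds at folds of 0.897 and 1.55, and 0.12 without WT 66. Of all marker sums made, only those of noradrenergic and of perivascular macrophage markers were, like Ptk2b, highest in 5xFAD 65 and lowest in WT 66. They did not share its order, since 5xFAD 64, the second highest in Ptk2b, was the second lowest in both, and the part of these cells in the Ptk2b values was not tested. The macrophage sum was low, at 184 in 5xFAD 65 and 114 in WT 66 over 7 genes. Of these, Lyve1, Pf4, Cbr2 and Ms4a7 were under the filter, and Pf4 was at 0 in WT 63. Ptk2b rested on 52 to 80 reads per library, Plcg2 on 63 to 96 and Inpp5d on 92 to 122. Counting error alone was then 13.9%, 12.6% and 10.4% of the value in the library with the fewest reads, against 0.817% for Apoe, which had at least 14994 reads.

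**Figure D3:**
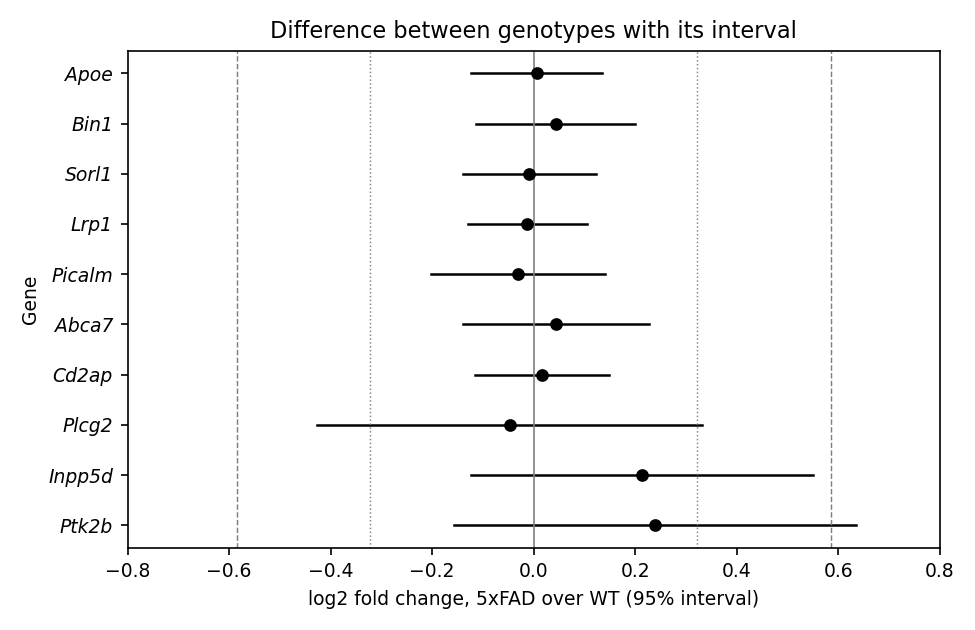
Log2 fold change of each gene, 5xFAD over WT, as a point with its 95% limma interval, where dashed lines mark a 1.5-fold and dotted lines a 1.25-fold change in either direction. All 10 intervals include 0, and Ptk2b, with an interval of −0.16 to 0.64, is the gene whose interval passes the 1.5-fold line.

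A 1.5-fold change in either direction lay outside the 95% interval for 9 of the 10 genes, against 71.4% of all tested genes, and a 1.25-fold change for 7 of the 10, against 47.2%. The exceptions at 1.25-fold were Plcg2, Inpp5d and Ptk2b. With fewer libraries some bounds did not hold. The upper log2 bound of Inpp5d passed 1.5-fold without 5xFAD 65 (0.68), WT 63 (0.64) or WT 66 (0.62). Without both 5xFAD 65 and WT 63, Inpp5d (0.76) and Plcg2 (lower bound −0.59) passed 1.5-fold and Abca7 (0.33) passed 1.25-fold. Intervals reached 0.16 to each side on the log2 scale at the median of the 10 genes and 0.25 over all tested genes, and the 7 well-bounded genes had at least 505 reads in every library. These bounds hold for the punched tissue as a whole and not for any cell type in it.

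**Figure D4:**
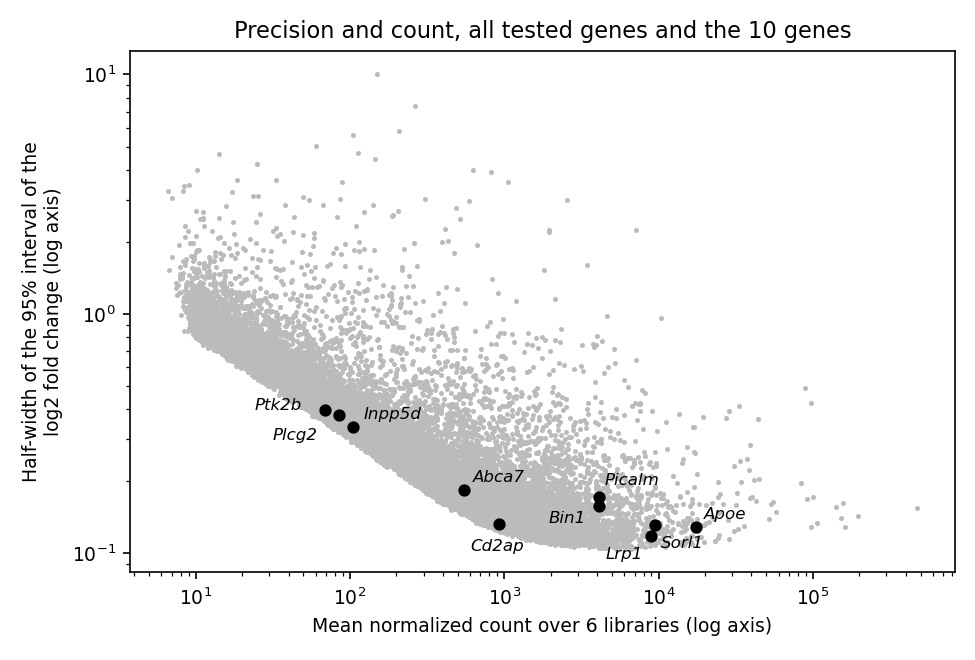
Distance from the log2 fold change to its 95% bound (log axis) against the mean normalized count over 6 libraries (log axis) for the 16411 tested genes (grey) and the 10 genes (black). The interval narrows as the count grows, and Ptk2b, Plcg2 and Inpp5d lie at the low-count end.

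Each gene except Apoe was set beside its closest relatives in the genome, 17 paralogues in all, to show which family member dominated in the tissue. The test called 0 of the 17 paralogues, with 0 at an unadjusted p under 0.05, against 2.32% of all tested genes. The median log2 fold change of the 17 was 0.028, and 1 of them, Plcg1, had all 5xFAD values above all WT values (3.72% of all tested genes did). For the signalling genes the broadly expressed relative was the higher one in every library. Ptk2, the focal adhesion kinase gene, was 8.37 to 13.4 times as high per kilobase as Ptk2b over the 6 libraries, Inppl1 (SHIP2) 5.96 to 7.93 times as high as Inpp5d, and Plcg1 8.18 to 11.8 times as high as Plcg2. Per kilobase of the longest transcript Plcg1 was 12.6 to 18.1 times as high as Plcg2. On that scale Ptk2 was 11.5 to 18.4 times as high as Ptk2b and Inppl1 4.96 to 6.60 times as high as Inpp5d.

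Among the endocytosis genes, Snap91, the neuronal clathrin assembly gene, was 2.39 to 2.60 times as high per kilobase as Picalm, and the ratio of Picalm to Snap91 was 0.40 ± 0.018 in 5xFAD and 0.40 ± 0.016 in WT (SD, n = 3 each). Bin1 was 1.45 to 1.75 times as high per kilobase as Amph, the neuronal amphiphysin gene, 19.3 to 27.5 times as high as Bin3 and 50.1 to 64.3 times as high as Bin2. Cd2ap and Sh3kbp1, which encodes the related adaptor CIN85, were close, with Sh3kbp1 1.12 to 1.23 times as high, but 0.55 to 0.60 times as high per kilobase of the longest transcript, so their order is not settled.

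Among the receptors, Lrp1 was 9.11 to 11.6 times as high per kilobase as Lrp1b and 81.0 to 174 times as high as Lrp2. Sorl1 and Sort1, the sortilin gene, were the closest pair, with a ratio of Sorl1 to Sort1 of 1.07 ± 0.12 in 5xFAD and 1.11 ± 0.027 in WT, and in 5xFAD 79 the ratio was below 1, at 0.94. Sorl1 was 7.10 to 8.66 times as high as Sorcs1, 10.8 to 14.9 times as high as Sorcs2 and 10.6 to 19.6 times as high as Sorcs3. Abca2, a transporter abundant in myelinating cells, was 10.2 to 12.99 times as high as Abca7, Abca1, which loads lipid onto apolipoprotein E, was 1.06 to 1.52 times as high, and Abca4 was the lowest of these 4 transporter genes.

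**Figure D5:**
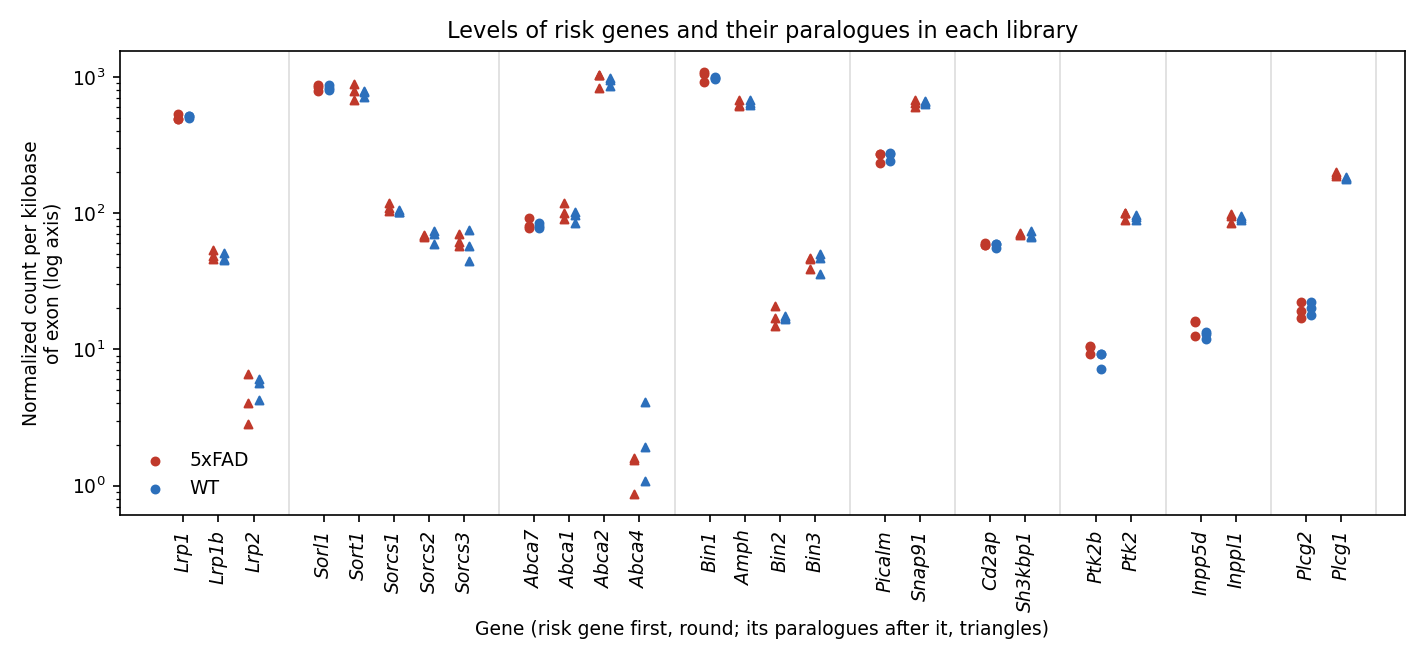
Normalized count per kilobase of exon (log axis) of each risk gene (round) and its paralogues (triangles) in the 3 5xFAD libraries (red, left) and the 3 WT libraries (blue, right). Ptk2, Inppl1 and Plcg1 lie above Ptk2b, Inpp5d and Plcg2 in all 6 libraries, and Lrp1 lies above Lrp1b and Lrp2.

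The wider pathways around these genes were described by their counts, and the highest counts named in each are not corrected for gene length. Of 30 genes of apolipoprotein E lipid transport, 28 were tested and 0 passed, with 0 at an unadjusted p under 0.05, against 2.32% of all tested genes. Of these 28, 21 had higher and 7 lower values in 5xFAD, with a median log2 fold change of 0.047 beside 0.00053 for all genes, of which 50.2% were higher. Among the smallest p-values were those of the receptor genes Lrp11, at −0.12 on the log2 scale (SE 0.057), and Vldlr, at 0.13 (SE 0.092), and of Trem2, the microglial lipid receptor gene, at 0.21 (SE 0.16). Clu and Apod, which encode the secreted carriers clusterin and apolipoprotein D, and Lrp11 had the highest counts, with Clu at 8821 in 5xFAD and 8651 in WT, Apod at 8087 and 7812, and Lrp11 at 2611 and 2837, as means in 5xFAD and in WT.

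Of 26 genes of the retromer and of Sorl1-like sorting, 0 passed, with 0 higher and 1 lower at an unadjusted p under 0.05. Over all tested genes 2.32% were under 0.05. There were 11 higher and 15 lower values, where 50.2% of all tested genes were higher, and the median log2 fold change was −0.0082. The 1 gene under 0.05 was Vps26c, a subunit of the retriever sorting complex, with −0.17 (SE 0.073). It was followed by Sorcs1 with 0.092 (SE 0.067), the retromer subunit gene Vps26a with −0.072 (SE 0.060) and the sorting nexin gene Snx1 with 0.070 (SE 0.062). All 26 had intervals inside a 1.5-fold change, against 71.4% of all tested genes. Among them were the high-count Sort1, Hspa12a and Rab7, whose means were 5943, 5619 and 5296 in 5xFAD and 5714, 5644 and 5419 in WT.

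Of 42 genes of clathrin endocytosis, 0 passed, with 24 higher and 18 lower values, where 50.2% of all tested genes were higher. Their median log2 fold change was 0.010. Sh3gl1, an endophilin gene, with 0.24 (SE 0.082), was the 1 at an unadjusted p under 0.05 (2.38% of the 42, against 2.32% of all tested genes). The next by p-value were Gak, a kinase gene of clathrin uncoating, with 0.086 (SE 0.052), Fcho2, whose protein initiates coated pits, with 0.091 (SE 0.059), and the adaptor gene Ap2a2 with 0.090 (SE 0.073). In 2 of the 42, Sh3gl1 and Gak, the 3 5xFAD values lay above all WT values, as in 3.72% of all tested genes. Intervals of 40 of the 42 lay inside a 1.5-fold change, against 71.4% of all tested genes. Clathrin heavy chain (Cltc), dynamin 1 (Dnm1) and the adaptor kinase gene Aak1 had the highest means, at 15933, 15012 and 8984 in 5xFAD and 16675, 15446 and 9020 in WT.

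Of 42 genes of immunoreceptor and phosphoinositide signalling, 0 passed, with 29 higher and 13 lower values, where 50.2% of all tested genes were higher, and a median log2 fold change of 0.044. There was 1 higher and 0 lower at an unadjusted p under 0.05, against 2.32% of all tested genes in either direction. Other small p-values were those of Plcg1 with 0.096 (SE 0.053) and the docking protein genes Gab2 with −0.12 (SE 0.070) and Dok1 with 0.60 (SE 0.37), the last at 13.4 in 5xFAD and 8.62 in WT. Intervals of 26 of these 42, or 61.9%, lay inside a 1.5-fold change, against 71.4% of all tested genes. The highest counts were those of Itpr1, an inositol trisphosphate receptor gene also high in cerebellar Purkinje cells, with means of 8738 in 5xFAD and 5640 in WT, Ptpn11 with 4521 and 4355, and Plcb4 with 3406 and 3332, in 5xFAD and in WT. Per kilobase of exon the means of Ptpn11 were 603 in 5xFAD and 581 in WT. They were above those of Itpr1, at 477 in 5xFAD and 308 in WT. In 5xFAD 65, however, Itpr1 reached 812, above the highest value of Ptpn11 (641). Per kilobase of the longest transcript the mean of Itpr1 (728) was above that of Ptpn11 (596), so their order is not settled. Itpr1 read 7072, 14879 and 4263 in 5xFAD and 2556, 11229 and 3133 in WT, which is the library order of the cerebellar sum, and the part of those cells in it was not tested.

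Of 67 genes at other Alzheimer's disease risk loci, 61 were tested and 0 passed in the limma test, with 37 higher and 24 lower values and a median log2 fold change of 0.022. At an unadjusted p under 0.05 there were 2 higher and 2 lower, or 6.56% of the 61 against 2.32% of all tested genes, and 50.2% of all tested genes had higher values. Mme, the gene of neprilysin, a peptidase that degrades amyloid peptides, read 226, 172 and 202 in 5xFAD and 384, 338 and 442 in WT, without overlap. Of the 61, 4 genes had all 5xFAD values above all WT values and 2 had them all below. Over all tested genes these shares were 3.72% and 3.7%. The log2 fold change of Mme was −0.95 (SE 0.13), with an adjusted p of 0.311 in limma and 1.73e-05 in DESeq2, so its call depends on the test. The others were Adamts1, a secreted metalloprotease gene, with −0.45 (SE 0.17), Lime1, a membrane adaptor gene, with 0.29 (SE 0.11), and Mindy2, a deubiquitinase gene, with 0.36 (SE 0.14). The 6 genes under the filter were Treml2, Epha1, Cass4, Pilra, Siglecg and Pirb, none above 15.3 normalized counts in any library. The highest counts were those of Ank3, Ctsb and Clu, with means of 9763, 9869 and 8821 in 5xFAD and 10342, 10148 and 8651 in WT. Per kilobase of exon Ank3 (289), whose merged exons are the longest of the 3, was below Ctsb (1654) and Clu (2542) over the 6 libraries.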

How the data were processed

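Per the submitters' processing notes, reads were handled with STAR, RSEM and DESeq2 on mm39. No source used here gives versions, the annotation release or the counting strand. The authors deposited 1 table with a signal per library, named TPM, but each column holds whole multiples of 1 step (100% of values, tolerance 0.001), so the values are gene counts divided by a size factor. The deposited log2 fold changes run WT over 5xFAD, and with the deposited p-value and score columns, per the file headers, were not used as results. In the authors' deposited table no member had an adjusted p-value under 0.999. The main test was limma 3.58.1 in R 4.3.3 (trend and robust moderation) on the log2 of the normalized count + 1, for genes with at least 10 in at least 3 of 6 libraries, adjusted by the Benjamini-Hochberg method at 0.05. edgeR 4.0.16 and DESeq2 1.42.0 were run on the recovered reads as alternatives. The main limma fit and these edgeR and DESeq2 fits were tried on simulated data, and the other alternatives were not. Gene lengths were taken from the GENCODE M21 annotation of GRCm38, an older build than the authors', and 52073 of 56923 identifiers (91.5%) had a symbol. The members, gene lists and tests were chosen with earlier results of these data known. The genes named are the members, their paralogues, Thy1 and, from each list, the 4 lowest p-values and the 3 highest means, plus genes under the filter and antisense neighbours, named after their values were seen. A few genes covered by that rule are not reported here. Paralogues without a fold change of their own are given as ratios. Intervals cover the spread of 3 libraries per group, and counting errors cover counting only.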

Additional observations from a re-analysis of the deposited data

How the results depend on the processing

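No member was called in any of the 16 alternatives, which were pseudocounts of 0.5 and 5, no filter, a filter of at least 50, TMM scaling, quantile normalization, limma without trend or robust moderation, edgeR, DESeq2, leaving out each library, and leaving out both 5xFAD 65 and WT 63, the last chosen after seeing the data. Values this near 0 changed sign in some. With quantile normalization Sorl1 was 0.0090 and Lrp1 0.0013, and without 5xFAD 65 and WT 63 Apoe was −0.056. Leaving out 1 library at a time gave log2 fold changes of −0.039 to 0.042 for Apoe, −0.042 to 0.028 for Sorl1, −0.049 to 0.0097 for Lrp1, −0.0080 to 0.12 for Bin1, −0.089 to 0.042 for Picalm, −0.027 to 0.089 for Abca7, −0.016 to 0.032 for Cd2ap and −0.15 to 0.047 for Plcg2. Inpp5d stayed at 0.15 to 0.33 and Ptk2b at 0.12 to 0.30 over these, with no unadjusted p under 0.05. The median of the members ranged from 0.0075 to 0.034. Over all genes the limma count of 1 became 0 without trend and robust moderation, 4 with DESeq2 and 9 without 5xFAD 65 and WT 63, and 0 to 2 when 1 library was left out. Thy1 had an adjusted p of 0.526 without the filter and 0.532 without trend and robust moderation, and 2.49e-05 to 0.404 when 1 library was left out. In the list of other risk loci the count of 0 became 1, Mme, without the filter (adjusted p = 0.0071), with DESeq2 (adjusted p = 1.73e-05) and without 5xFAD 65 and WT 63 (adjusted p = 0.016). Per kilobase of the longest transcript 6 of the 10 members kept their place in the order of levels. Of 17 ratios between members and paralogues, that of Sh3kbp1 to Cd2ap turned, at a mean of 0.58. Most of the other ratios kept their direction but moved by more than their SD over the 6 libraries. Snap91 was on this scale 2.12 to 2.32 times Picalm, and Sorl1 7.38 to 10.2 times Sorcs2. On that scale Abca7 was 34.3 times Abca4, against 56.3 with merged exons. No paired analysis was possible because the groups share no replicate number. Low counts limit Ptk2b, Plcg2 and Inpp5d.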
